A study of Homo sapiens with 6 samples.

Results

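The 10 amino acid transporter genes described here were the exchangers and carriers SLC7A1, SLC7A5, SLC7A11, SLC43A1, SLC38A2, SLC1A4, SLC1A5, SLC6A9 and SLC36A1, and SLC3A2, the subunit that SLC7A5 and SLC7A11 need. They were chosen by name as the amino acid transporters of a set list, with earlier results of these data known. They are 10 of the 53826 entries in each library, with 1 entry per gene. Of the 10, 9 reached 5 TPM in at least 1 library, and SLC43A1 did not. RNA-seq was performed on the human lines PK-1 and Panc-1, both derived from pancreatic ductal adenocarcinoma, and each line gave a control culture and cultures exposed for 24 h to an antagonist of retinoic acid receptor γ (RARγ). The antagonists were RARγi-1 (LY2955303) and RARγi-2 (MM11253). Each of the 6 conditions had 1 library, so no p-value or replicate error could be computed, and the values describe these 6 libraries. The controls are labelled only as control, the doses and any vehicle of the RNA-seq are not stated in the sources used here, and the treatment entry of both RARγi-2 libraries reads RARγi-1, so the titles decided the groups.

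Amino acids cross the plasma membrane on solute carriers of several families, and most of these exchange one amino acid for another or move it together with sodium. SLC3A2 (CD98hc) is a heavy chain that is linked by a disulfide bond to light chains of the SLC7 family and carries them to the cell surface. When amino acids run short or unfolded proteins accumulate, the transcription factor ATF4 is known to raise several transporter genes, and NRF2 is known to raise SLC7A11 under oxidative stress.

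TPM is the abundance of each transcript per length, with an equal total for each library, so levels of different genes can be set side by side. The deposited values under 1 TPM had been raised to 1 TPM, called the floor here. A log2 fold change is the log2 ratio of (TPM + 1) with an inhibitor to (TPM + 1) without it, always within a cell line, which understates the change of low genes, and "rose" and "fell" are used past 2-fold. Each control served both inhibitors, so the 2 comparisons of a line share it. The spread of a fold change, estimated from how far both treated libraries of a line lay apart over the 12412 entries that reached 5 TPM in any library, was 0.39 in PK-1 and 0.30 in Panc-1 on the log2 scale. It includes real differences between the inhibitors and misses variation common to both treated libraries. In bulk RNA, a change in every cell and a change in some of the cells cannot be told apart.

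Between 13149 and 13652 entries per library lay above the floor. The depth is unknown, since TPM keeps none. Of the epithelial markers, KRT8, KRT18 and KRT19 were at 156.6 TPM or more in all 6 libraries, while CDH1 was at the floor in Panc-1 throughout. EPCAM had at least 497 TPM in PK-1 and between 9.18 and 19.4 TPM in Panc-1. The summed TPM of the 5 epithelial markers was 16834, 11210 and 11657 in the PK-1 control, RARγi-1 and RARγi-2 libraries and 8413, 1781 and 1482 in those of Panc-1. The keratins made up most of these sums. CDH1 went the other way in PK-1, from 170 TPM in the control to 270 with RARγi-1 and 385 with RARγi-2. Of 14 markers of acinar, islet, leukocyte, endothelial and fibroblast cells, 11 were at the floor in all 6 libraries, among them INS, PTPRC, PECAM1 and COL1A2. The summed TPM of the 14 was 24.1, 118 and 97.3 for the PK-1 libraries, 297, 281 and 240.4 for those of Panc-1, and came from CD68, COL1A1 and PRSS1. The part of these shifts in the results was not tested.

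Of the 10 transporters, 7 rose in at least 1 comparison, none fell in any, and SLC7A11, SLC6A9 and SLC1A4 rose in all 4. In PK-1, 4 rose with RARγi-1 and 6 with RARγi-2, where 9.91% and 12.9% of the 12412 entries did. In Panc-1, 4 rose with RARγi-1 and 6 with RARγi-2, where 7.86% and 9.02% of the entries did. The 3 genes that rose in all 4 comparisons are 30% of the transporters, and 2.71% of all entries did so. Since the transporters were chosen with earlier results of these data known, these shares only describe the list. Falls past 2-fold were seen in 5.2%, 13.5%, 6.51% and 12% of the entries, in the order PK-1 RARγi-1, PK-1 RARγi-2, Panc-1 RARγi-1 and Panc-1 RARγi-2. In that order the median log2 fold change of the transporters was 0.88, 1.14, 0.87 and 1.20, and that of all entries was 0.13, 0, 0.05 and 0. Further on, 4 values given without names of libraries follow this order. Scaling the libraries by median ratios shifts log2 differences in TPM by -0.13 in PK-1 RARγi-1 and by less than 0.1 in the others, and moves low genes less on the (TPM + 1) scale.

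**Figure D1:**
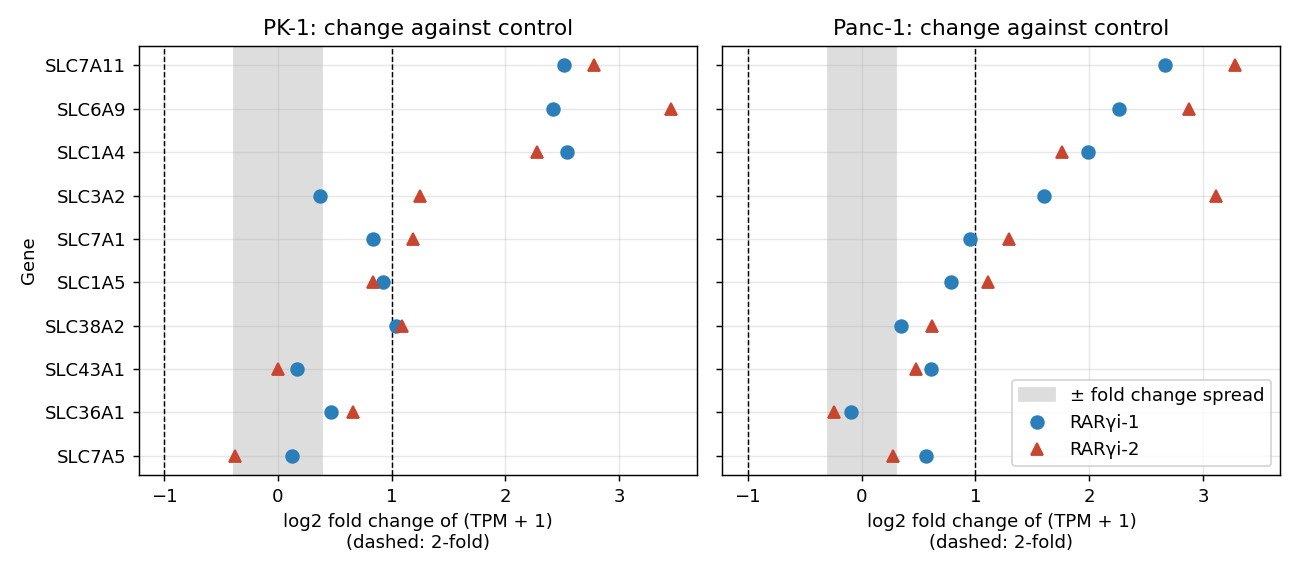
Log2 fold change of (TPM + 1) against the control of the same line (x axis) for the 10 transporters (y axis), in PK-1 on the left and Panc-1 on the right. Circles are RARγi-1 and triangles RARγi-2, 1 library each; dashed lines mark 2-fold and the grey band the spread of a fold change (0.39 and 0.30). SLC6A9, SLC7A11 and SLC1A4 lie right of the upper dashed line in both panels, and no point lies left of the lower one.

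Short stretches of the promoters are shown first, because they are where the transcription factors named above can bind. In RefSeq promoters of GRCh38.p14, given as 250 bases before to 50 after each transcript start, 9 of the 10 genes had an entry, with 16 promoters; SLC7A11 had none. The C/EBP-ATF element that ATF4 can bind, searched as TGATGNAA on both strands, was found in 4 of the 9 genes and 4 of the 16 promoters. It was found in 4.46% of all 27305 genes and 3.62% of all 35116 promoters. The capitals mark the match, in 30 bases read 5′ to 3′ on the strand of the gene.
SLC1A4: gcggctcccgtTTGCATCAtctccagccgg
SLC3A2: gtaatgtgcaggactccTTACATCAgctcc
SLC7A1: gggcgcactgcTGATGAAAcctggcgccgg
SLC1A5: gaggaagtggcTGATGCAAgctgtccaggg
The windows lie at chr2:64989381-64989410, chr11:62881719-62881748, chr13:29595663-29595692 and chr19:46784893-46784922, the first pair on the plus strand and the others on the minus strand. The match reads on the opposite strand of the gene in SLC1A4 and SLC3A2. Counted from 1 at the transcript start, with no base 0, it covers bases -7 to 1 in SLC1A4, 38 to 45 in SLC3A2, 8 to 15 in SLC7A1 and -97 to -90 in SLC1A5.

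The core of the antioxidant response element, which NRF2 binds, was searched as TGACNNNGC. It was found in 4 of the 9 genes and 4 of the 16 promoters, against 16.1% of all genes and 13.3% of all promoters. The capitals again mark the match.
SLC3A2: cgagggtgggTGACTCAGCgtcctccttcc
SLC7A1: tgcccggcggTGACGCGGCcgagcgggccg
SLC7A5: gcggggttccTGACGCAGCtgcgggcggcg
SLC1A5: cctggatcttGCGAGGTCAgctcccgctcc
These windows lie at chr11:62881652-62881681 on the plus strand and at chr13:29595754-29595783, chr16:87869490-87869519 and chr19:46787385-46787414 on the minus strand. The match covers bases -37 to -29 in SLC3A2, -85 to -77 in SLC7A1, -2 to 7 in SLC7A5 and, on the opposite strand of the gene, -111 to -103 in SLC1A5. The hexamer of nuclear receptors, AGGTCA, which retinoic acid receptors bind in pairs, was found in 2 of the 9 genes, SLC1A5 and SLC36A1. That is 2 of the 16 promoters, against 16.5% of all genes and 13.8% of all promoters. In SLC1A5 the hexamer overlaps the antioxidant match shown above, in another promoter than the C/EBP-ATF match. A match describes letters only, and no binding was measured.

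SLC3A2 and its light chains were measured first. SLC3A2 (chr11:62856109-62888860) had 635 TPM in the PK-1 control, 823 with RARγi-1 and 1509 with RARγi-2, and 153, 469 and 1340.3 TPM in the same order in Panc-1. Both lines had the highest level with RARγi-2, and the Panc-1 library with RARγi-2 came close to that of PK-1 from a control level that was 4.14-fold lower. Against the control, PK-1 had log2 fold changes of 0.38 with RARγi-1 and 1.25 with RARγi-2, and Panc-1 of 1.61 and 3.12, so that SLC3A2 rose in 3 of the 4 comparisons and in PK-1 RARγi-1 stayed within the spread.

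SLC7A11 (chr4:138164097-138242349) encodes xCT, the light chain that brings in cystine in exchange for glutamate. It had 21.9 TPM in the PK-1 control, 129.9 with RARγi-1 and 156 with RARγi-2. In Panc-1 it had 5.15, 38.1 and 58.7 TPM. Each treated library was far above its control, and the rise was 5.72-fold with RARγi-1 and 6.87-fold with RARγi-2 in PK-1, and for Panc-1 6.35-fold and 9.70-fold, on the (TPM + 1) scale.

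SLC7A5 (chr16:87830023-87869507) encodes LAT1, the light chain that takes in leucine and other large neutral amino acids. It had 928, 1010.4 and 715 TPM in the PK-1 control, RARγi-1 and RARγi-2 libraries and 214, 317 and 259 TPM in those of Panc-1. It was the most abundant of the 10 in both controls, and its order among the libraries differed between the lines, the RARγi-2 library being the lowest in PK-1 and above the control in Panc-1. Its log2 fold changes did not pass 2-fold, at 0.12 and -0.38 for the PK-1 libraries and 0.57 and 0.28 for those of Panc-1. Only the Panc-1 RARγi-1 value was past the spread. Both RARγi-2 values, on which the difference in order rests, were within it. In PK-1 RARγi-1 the sign turned to -0.01 when libraries were rescaled by median ratios.

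The balance of the heavy chain to the light chains, a ratio chosen after its values were seen, was computed as SLC3A2 over the summed TPM of SLC7A5, SLC7A6, SLC7A7, SLC7A8, SLC7A10 and SLC7A11, the light chains known to pair with it. The ratio was 0.641, 0.703 and 1.69 in the PK-1 control, RARγi-1 and RARγi-2 libraries and 0.646, 1.26 and 3.99 in those of Panc-1. Both controls had more light chain than heavy chain transcript, at nearly the same ratio, and both RARγi-2 libraries had more heavy chain. A ratio within a library does not change with its scaling, and the numbers refer to transcripts, not to protein. The summed light chains were 989.7, 1171 and 892 TPM in PK-1 and 237, 372 and 336 TPM in Panc-1. SLC7A5 made up 93.8%, 86.3% and 80.1% of that sum in PK-1, and for Panc-1 the shares were 90.01%, 85.2% and 77.2%. The ratio of SLC7A5 to SLC7A11 was 42.4, 7.78 and 4.58 in PK-1, against 41.5, 8.33 and 4.42 in Panc-1, so its values in the lines lay close together in each condition.

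**Figure D2:**
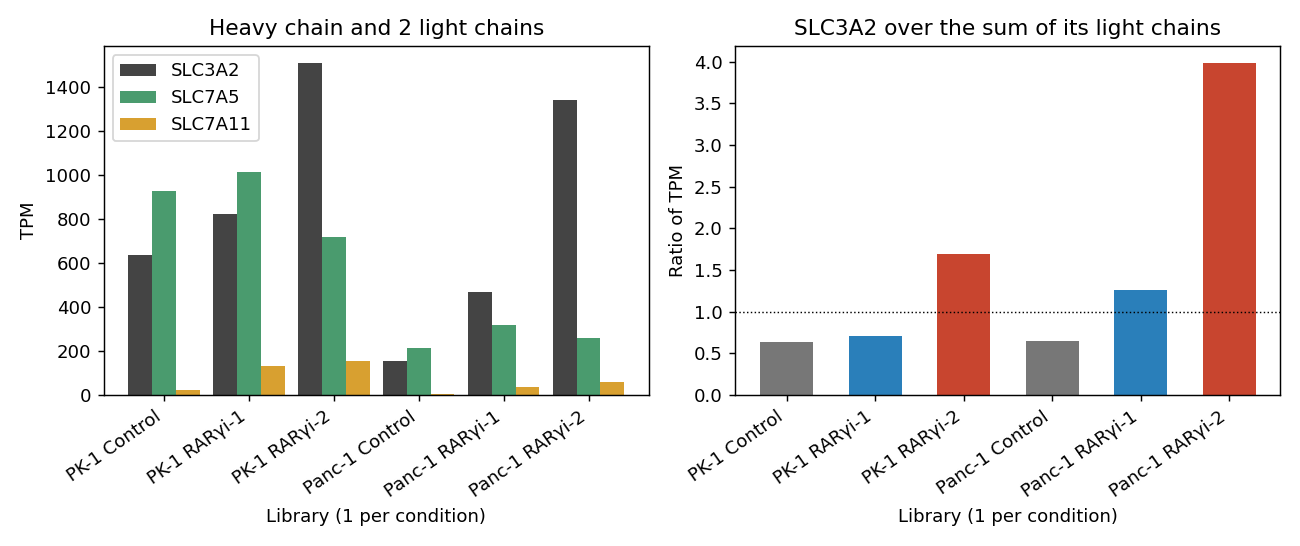
Left, TPM of the heavy chain SLC3A2 and of the light chains SLC7A5 and SLC7A11 (y axis, linear from 0) in each of the 6 libraries (x axis). Right, the ratio of SLC3A2 to the sum of 6 light chains, with a dotted line at 1; it is under 1 in both controls and reaches 1.69 in PK-1 and 3.99 in Panc-1 with RARγi-2.

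SLC7A1 (chr13:29509414-29595688) encodes CAT1, which takes in arginine, lysine and ornithine without a heavy chain. It had 47.8 TPM in the PK-1 control, 86.2 with RARγi-1 and 110.2 with RARγi-2, and 30.3, 59.6 and 76.0 TPM in Panc-1. The order control, RARγi-1, RARγi-2 was the same in both lines. With RARγi-2 it rose 2.28-fold in PK-1 and 2.46-fold in Panc-1, and with RARγi-1 the values were 1.79-fold and 1.93-fold.

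SLC43A1 (chr11:57484534-57515702), a facilitated carrier of large neutral amino acids, was the lowest of the 10. It had 1 TPM or less in the PK-1 control, 1.24 with RARγi-1 and 1.004 with RARγi-2, and 1.41, 2.68 and 2.35 TPM in Panc-1. The Panc-1 log2 fold changes were 0.61 and 0.47, and 0.93 and 0.74 without a pseudocount. No fold change is given in PK-1, where the control was at the floor.

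Among the carriers of small neutral amino acids, SLC1A4 (chr2:64988479-65023865), which encodes the exchanger ASCT1 for serine, alanine and cysteine, was the lowest of them in the PK-1 control. It had 1.34 TPM there, 12.7 with RARγi-1 and 10.4 with RARγi-2, and 13.3, 55.6 and 47.5 TPM in Panc-1. The treated libraries of both lines were above the control, RARγi-1 slightly more than RARγi-2. Its rise on the log2 scale came to 2.54 and 2.28 for PK-1 and to 1.99 and 1.77 for Panc-1. The PK-1 control lay near the floor, and without a pseudocount the PK-1 values were 3.24 and 2.95.

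SLC1A5 (chr19:46774883-46788594), the ASCT2 exchanger known for glutamine uptake, had 324, 618 and 579 TPM in the PK-1 control, RARγi-1 and RARγi-2 libraries and 165, 286 and 358 TPM in those of Panc-1. All 4 treated libraries lay above their control by more than the spread, at 1.90-fold and 1.78-fold for PK-1 and 1.73-fold and 2.16-fold for Panc-1. Only the Panc-1 RARγi-2 library passed 2-fold. In GENCODE 29, 23.4% of its exon bases lie opposite an exon of AC008622.2, and whether the counting used the strand is not stated, so reads of the pair might not be told apart.

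SLC38A2 (chr12:46358188-46372773) encodes SNAT2, which takes in alanine, glutamine and other neutral amino acids with sodium. It had 192, 396 and 410.4 TPM in PK-1 and 100.6, 128 and 155 TPM in Panc-1, in the same order of libraries. PK-1 rose 2.06-fold and 2.13-fold, and the Panc-1 values were 1.27-fold and 1.54-fold. Rescaling by median ratios took the PK-1 RARγi-1 value from 1.04 to 0.91 on the log2 scale, under 2-fold.

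SLC6A9 (chr1:43996483-44031462), the glycine transporter GLYT1, is best known from glia and the control of glycine at synapses. It had 8.35 TPM in the PK-1 control, 49.1 with RARγi-1 and 101.7 with RARγi-2, and 5.25, 29.04 and 44.8 TPM in Panc-1. It was among the lower of the 10 in both controls and rose 5.36-fold with RARγi-1 and 11.0-fold with RARγi-2 in PK-1 and, likewise, 4.81-fold and 7.33-fold for Panc-1, each time more with RARγi-2. CCDC24 lies on the opposite strand over 7.83% of its exon bases and had between 10.5 and 18.7 TPM.

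SLC36A1 (chr5:151344596-151556085) encodes PAT1, a proton-coupled carrier of glycine, alanine and proline that also sits on lysosomes. It had 11.6, 16.4 and 18.9 TPM in PK-1 and 6.26, 5.82 and 5.12 TPM in Panc-1. Both PK-1 treated libraries lay above their control, at log2 fold changes of 0.46 and 0.66, and the Panc-1 ones slightly below it, at -0.09 and -0.25. None passed 2-fold, and the Panc-1 values were within the spread.

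**Figure D3:**
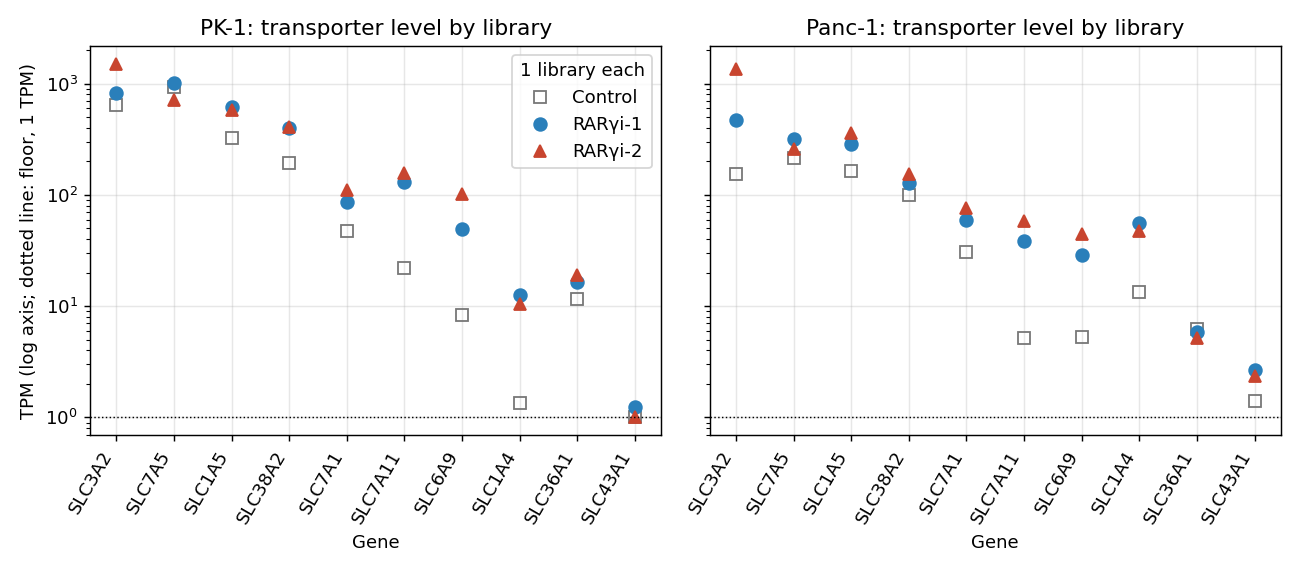
TPM of the 10 transporters (y axis, log axis, with the floor of 1 TPM as a dotted line) in PK-1 and Panc-1; squares are the control, circles RARγi-1 and triangles RARγi-2, 1 library each. Genes are ordered by their mean over the 6 libraries; SLC7A5 is the highest in both controls, and SLC43A1 is the lowest in every library, at 1 to 2.68 TPM.

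The order of levels in the controls ran from SLC7A5 to SLC43A1. In the PK-1 control it was SLC7A5, SLC3A2, SLC1A5, SLC38A2, SLC7A1, SLC7A11, SLC36A1, SLC6A9, SLC1A4 and SLC43A1. In the Panc-1 control SLC1A5 stood above SLC3A2, SLC1A4 came sixth and SLC7A11 ninth. Neighbours in this order that differed by less than the spread of a fold change were SLC1A4 and SLC43A1 in PK-1 and, in Panc-1, SLC1A5 and SLC3A2, SLC36A1 and SLC6A9, and SLC6A9 and SLC7A11. All other neighbours differed by more. The spread was taken between libraries for the same gene and does not measure differences between genes, so it does not settle this order. With treatment SLC3A2 became the most abundant in 3 of the 4 treated libraries, all but PK-1 RARγi-1. Between the controls, 8 of the 10 were higher in PK-1, from 1.57-fold for SLC7A1 to 4.34-fold for SLC7A5, and SLC1A4 and SLC43A1 were lower. SLC7A11 and SLC3A2 were 4.25-fold and 4.14-fold higher in PK-1. Together the 10 genes made up 0.217% of the TPM in the PK-1 control, 0.314% with RARγi-1 and 0.361% with RARγi-2, and 0.0695%, 0.139% and 0.235% in Panc-1.

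RARγi-2 and RARγi-1 were then set against each other within each line; their doses are not stated, so the differences describe the libraries and not the compounds. In PK-1, SLC3A2 and SLC6A9 were higher with RARγi-2 by 0.87 and 1.04 on the log2 scale and SLC7A5 was lower, at -0.50, past the spread of 0.39. In Panc-1, SLC3A2, SLC7A11, SLC6A9, SLC7A1 and SLC1A5 were higher by 1.51, 0.61, 0.61, 0.35 and 0.32, past the spread of 0.30. SLC7A5 was lower with RARγi-2 in Panc-1 too, at -0.29, which is within the spread. SLC1A4 had values of -0.27 and -0.22, again within it. The remaining differences were within the spread of their line. The spread was estimated from these same differences over all entries, so a sizeable share of all entries lies past it by construction. Being past it therefore does not set a gene apart from the other entries. Over the 10 genes the median difference was 0.12 for PK-1 and 0.30 for Panc-1, and over all entries it was -0.14 and -0.09.

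Few of the other amino acid transporters of the plasma membrane were expressed. Of 31 such genes listed with earlier results known, 7 reached 5 TPM, and 0, 1, 0 and 1 rose in PK-1 RARγi-1, PK-1 RARγi-2, Panc-1 RARγi-1 and Panc-1 RARγi-2, where 9.91%, 12.9%, 7.86% and 9.02% of all entries did. The gene that rose in both RARγi-2 libraries was SLC38A1, the SNAT1 carrier of glutamine, at 84.8, 160 and 185 TPM in PK-1 and 43.1, 62.6 and 89.6 TPM in Panc-1. As log2 fold changes these were 0.91 and 1.11 for PK-1 and 0.53 and 1.04 for Panc-1. SLC1A3, a glutamate transporter, fell in PK-1 from 23.7 TPM to 7.53 and 2.52 and was at the floor in Panc-1. SLC1A1, another glutamate transporter, fell with RARγi-2 in PK-1, at a log2 fold change of -1.03. These genes were chosen after their values were seen. Of all other entries whose symbol has the SLC form, 155 reached 5 TPM, and 12.9%, 16.1%, 9.68% and 12.3% rose in the same order, 2.58% in all 4.

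**Figure D4:**
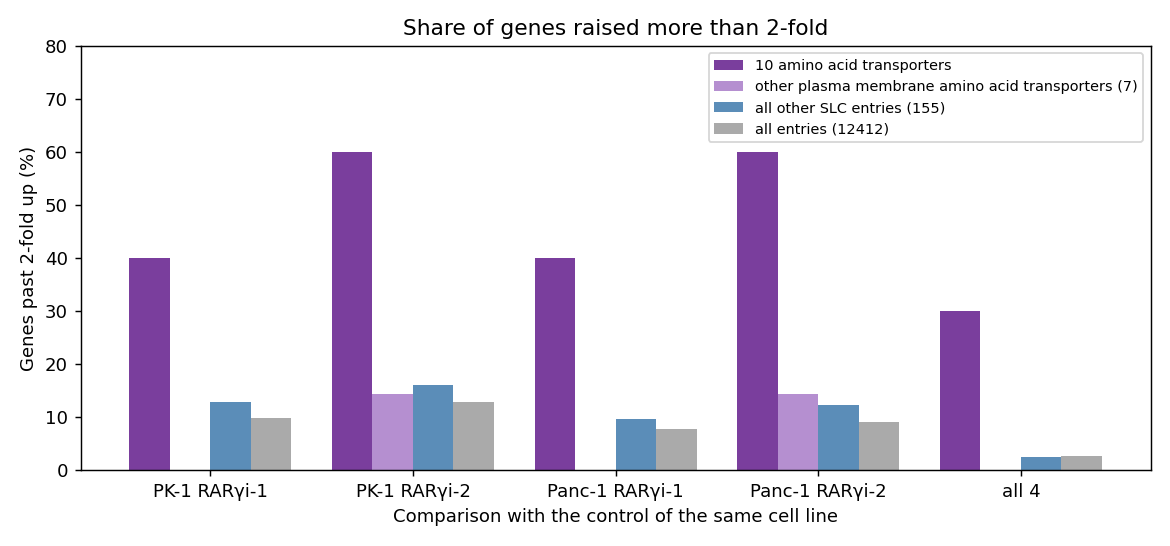
Percent of genes past 2-fold up (y axis) in each comparison with the control of the same line and in all 4 (x axis), for the 10 transporters, and, each with at least 5 TPM, 7 other plasma membrane amino acid transporters, 155 other SLC entries and all 12412 entries. The transporters, chosen with earlier results known, reach 40% to 60% in single comparisons and 30% in all 4, where 2.71% of all entries did so.

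Transporters of organelles were set beside these. Of 15 lysosomal and vesicular amino acid transporters, 9 reached 5 TPM, their median log2 fold changes were 0.45, 0.34, 0.55 and 0.56, and 1 rose in each RARγi-2 comparison, SLC66A1 in PK-1 and SLC36A4 in Panc-1, and none in the others. That is 11.1% of the 9, near the 12.9% and 9.02% of all entries that rose there. SLC66A1 (listed as PQLC2), which exports cationic amino acids from lysosomes, had 8.94, 17.7 and 19.0 TPM in PK-1 and 17.1, 34.0 and 34.8 TPM in Panc-1, close to 2-fold throughout. Of 11 mitochondrial carriers of amino acids, 10 reached 5 TPM, and 0, 3, 1 and 2 fell while 1, 0, 0 and 1 rose. Among all entries 5.2%, 13.5%, 6.51% and 12% fell and 9.91%, 12.9%, 7.86% and 9.02% rose, and counts this small among 10 genes do not set the list apart. The genes that fell were SLC25A12, SLC25A15 and SFXN1 in PK-1 and SLC25A12 and SLC25A18 in Panc-1, and those that rose were SLC25A29 in PK-1 and SLC25A38, a mitochondrial glycine carrier, in Panc-1. SLC25A12, the aspartate and glutamate carrier, had 21.9, 13.1 and 6.14 TPM in PK-1 and 20.8, 10.4 and 6.69 TPM in Panc-1, with log2 fold changes of -0.70, -1.68, -0.93 and -1.50, so that it fell with RARγi-2 in both lines. SFXN1, the mitochondrial serine carrier, had 83.1, 51.3 and 31.2 TPM in PK-1 and 55.0, 41.2 and 33.7 TPM in Panc-1 and passed 2-fold in PK-1 RARγi-2 and in none of the other comparisons. The organelle genes named were chosen after their values were seen.

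Genes of the transcriptional response to amino acid shortage, and genes of glutathione, cysteine and thioredoxin metabolism and its regulation, were listed in the same way. Genes of the first list can also respond to unfolded proteins, and the authors reported raised unfolded protein response pathways for these cells. Whether amino acids were short in the cultures was not tested. Of the 12 genes of the first list, 9, 9, 9 and 10 rose, where 9.91%, 12.9%, 7.86% and 9.02% of all entries did. In all 4 comparisons 8 rose, and the medians were 2.28, 2.60, 2.58 and 2.58. ATF5 fell with RARγi-1 in both lines and EIF2AK4, the amino acid sensor kinase GCN2, with RARγi-2 in PK-1 (both named after their values were seen). Among the 12, TRIB3, a pseudokinase that is a target of ATF4 and CHOP, had 132, 720.0 and 1339 TPM in PK-1 and 45.7, 395 and 587 TPM in Panc-1. DDIT3, which encodes CHOP, rose by 2.92, 4.18, 2.82 and 3.71 on the log2 scale, and ATF3, a further stress-induced factor, by 2.45, 4.13, 4.35 and 6.20. NUPR1, a small stress-induced chromatin protein, was at 1 TPM or less in the PK-1 control, 14.3 and 16.2 TPM with the inhibitors, and 21.1, 480.2 and 588 TPM in Panc-1. ATF4, also named after its values were seen, had 472, 1138 and 1394 TPM in PK-1 and 312, 618 and 821 TPM in Panc-1. Its log2 fold changes were 1.27, 1.56, 0.99 and 1.40, so it rose in all comparisons but Panc-1 RARγi-1. Of the 10 genes of the second list, which is not limited to glutathione synthesis, 6, 6, 5 and 5 rose, to be set beside those same shares of all entries. In all 4 comparisons 5 of the 10 rose, and 8 of the 12 above, where 2.71% of all entries did so. GSS, NFE2L2, KEAP1 and GPX4 passed 2-fold in no comparison, and were named after their values were seen. GCLC, the catalytic subunit of the enzyme for the rate-limiting step of glutathione synthesis, had 54.5, 173 and 206 TPM in PK-1 and 22.0, 89.9 and 151 TPM in Panc-1, and its partner GCLM rose by 1.02, 1.81, 1.64 and 2.06. CTH, which makes cysteine from cystathionine, had 6.64, 51.4 and 71.8 TPM in PK-1 and 4.01, 40.9 and 37.7 TPM in Panc-1. TXNRD1, a thioredoxin reductase, rose by 1.42, 1.64, 1.82 and 2.12. CHAC1, which breaks glutathione down and belongs to both lists, had 9.98, 137 and 148 TPM in PK-1 and 27.1, 170.5 and 193 TPM in Panc-1.

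Amino acid sensing upstream of mTORC1 was a further list. Of 23 genes listed, 21 reached 5 TPM, and 1, 3, 4 and 3 rose and 0, 0, 1 and 1 fell, with median log2 fold changes of 0.08, -0.00, 0.26 and 0.08. The shares that rose were 4.76%, 14.3%, 19.0% and 14.3%, against 9.91%, 12.9%, 7.86% and 9.02% of all entries, so that in PK-1 they were below or near the general share. SESN2, a leucine sensor that restrains mTORC1 and a known ATF4 target, was the 1 gene that rose in all 4, with 17.8, 100.1 and 165 TPM in PK-1 and 23.4, 297 and 301 TPM in Panc-1. RRAGC, a Rag GTPase that recruits mTORC1 to lysosomes, had log2 fold changes of 0.91, 1.25, 1.37 and 1.55, and FLCN, which acts on it, 0.70, 0.77, 1.03 and 1.06. RRAGA also rose in PK-1 RARγi-2 and CASTOR1 in Panc-1 RARγi-1, and CASTOR2 fell in both Panc-1 comparisons; these genes were named after their values were seen.

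The entries most like SLC3A2 and SLC7A11 were found by the Euclidean distance of their 4 log2 fold changes, among 10620 entries that reached 10 TPM in any library. Nearest to SLC3A2 were TMEM198, SNORD95, ARMCX1, CHST1 and MFSD2A, at distances of 0.47 to 0.75. None of these exceeded 35.1 TPM, far under the level of SLC3A2. In the PK-1 control TMEM198, ARMCX1 and CHST1 were at the floor and SNORD95 had 2.94 TPM. In the Panc-1 control CHST1 was at the floor, and TMEM198, SNORD95, ARMCX1 and MFSD2A had 1.84, 2.39, 3.29 and 4.02 TPM. The fold changes of these low entries in both lines, and so the distances, depend on the floor and the pseudocount. MFSD2A, a lysophospholipid transporter, had log2 fold changes of 0.35, 0.80, 1.07 and 2.85 in the same order. Nearest to SLC7A11 were FTH1, FICD, PANX2, IL20RB and HKDC1, at 0.39 to 0.64. FTH1, the ferritin heavy chain, rose by 2.50, 3.00, 2.92 and 3.08 on the log2 scale. In the Panc-1 control HKDC1 was at the floor and IL20RB had 1.21 TPM, and HKDC1 had 1.007 TPM in the PK-1 control. FICD had 3.20 TPM in the PK-1 control and 3.84 TPM in that of Panc-1, where PANX2 had 3.50 TPM. The same limit holds for these low entries.

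Near-identical copies had little signal. The SLC7A5 copy SLC7A5P2 had at most 2.72 TPM and SLC7A5P1 was at the floor in all 6 libraries, as was SLC7A11-AS1, which lies opposite 8.97% of the exon bases of SLC7A11.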

How the data were processed

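RNA was isolated with Trizol and libraries were made with the TruSeq stranded mRNA kit. The authors deposited, for each library, log2 TPM values with a floor at 1 TPM, which was read from the values. The submitters' processing notes name hg38; the aligner, the counting, its use of strand and the annotation are not given in the sources used here. They were returned to linear TPM and log2 fold changes computed with a pseudocount of 1 TPM for 4 comparisons, with no p-value because there was 1 library per condition. The spread of a library was the scaled median absolute deviation (factor 1.4826) between the treated libraries of a line, divided by the square root of 2, and that of a fold change is larger by that root. The depth is unknown, so no interval was given. Gene positions and promoters came from RefSeq GRCh38.p14 and exon overlaps from GENCODE 29. The transporters and lists were chosen with earlier results of these data known. Named genes were the 10 transporters, up to 5 list genes per direction past 2-fold in all 4 comparisons, and the 5 entries nearest to SLC3A2 and to SLC7A11; others are marked where named. Alternatives were another or no pseudocount, other thresholds and filters, median-ratio scaling and summed rows. The fold change code was run on simulated data with changes placed only in genes of higher control level. Low genes, such as SLC1A4 in PK-1, were therefore not covered by it. Python 3.11.15, pandas 2.3.3, NumPy 2.4.6 and Matplotlib 3.10.9 were used.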

Additional observations from a re-analysis of the deposited data

Results flagged for a closer look

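SLC36A1 moved in opposite directions in the cell lines: its log2 fold changes in PK-1 were 0.46 with RARγi-1 and 0.66 with RARγi-2, whereas Panc-1 had -0.0910 and -0.25. The difference was not tested, and with 1 library per condition no such test can be made. The Panc-1 values are within the spread of a fold change, and neither line passed 2-fold.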

How the results depend on the processing

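The median log2 fold changes of the 10 transporters moved by less than the spread of a single library (0.28 in PK-1 and 0.21 in Panc-1) under every alternative that was run. The number that rose in PK-1 RARγi-2 was 3 instead of 6 with a 3-fold threshold. With a 1.5-fold threshold, 7 instead of 4 rose in Panc-1 RARγi-1 and 5 instead of 3 in all 4 comparisons. Median-ratio scaling took SLC38A2 in PK-1 RARγi-1 under 2-fold, the 1 crossing among the 40 single values, and turned the sign of SLC7A5 in PK-1 RARγi-1 to -0.01. Without a pseudocount 7 single values moved by more than that spread, all upward, and with one of 0.1 TPM 4 did. SLC7A11 in Panc-1 became 2.89 and 3.51 and SLC6A9 in Panc-1 RARγi-2 became 3.09 without one, moves that are within the larger spread of a fold change. SLC43A1 in Panc-1, a gene near the floor, went from 0.61 to 0.93 with RARγi-1 and from 0.47 to 0.74 with RARγi-2. The RARγi-1 move is past that larger spread, and both values also moved with 0.1 TPM. Summing repeated rows changed nothing, since each gene has 1 row. No replicate could be left out, and no paired analysis was possible because there is 1 library per condition. Unknown depth limits the reading of low values, such as those of SLC43A1 and of SLC1A4 in the PK-1 control.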

Other observations

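Outside amino acid transport, SLC33A1, SLC31A1 and SLC2A10 were among the other SLC entries that rose in all 4 comparisons, and they were named after their values were seen. SLC33A1, which carries acetyl-CoA into the endoplasmic reticulum, had 15.8, 51.1 and 64.3 TPM in the PK-1 control, RARγi-1 and RARγi-2 libraries and 10.5, 38.4 and 48.1 TPM in those of Panc-1. SLC31A1, the copper importer CTR1, had 34.4, 75.9 and 97.1 TPM in PK-1 and 14.7, 49.9 and 59.1 TPM in Panc-1. In both genes the RARγi-2 library had the highest level of each line. SLC2A10, of the glucose transporter family, went from 12.3 TPM to 59.3 and 61.0 in PK-1 and from 1 TPM or less to 5.80 and 5.64 in Panc-1.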
